A study of Mus musculus with 28 samples.

Results

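Occupancy of the glucocorticoid receptor (GR) by chromatin immunoprecipitation sequencing (ChIP-seq) was compared between macrophages given dexamethasone (Dex) and macrophages given corticosterone (Cort). The comparison used 8 of the 28 samples of the series, 4 Dex and 4 Cort libraries, chosen by their treatment and replicate labels, and all 8394 GR peaks. Of these peaks, 5183 had enough reads to be tested, and 5018 when the library Cort replicate 4, which stood apart, was left out. Every group was made of bone marrow-derived macrophages. The marrow came from C57BL/6 males of 8 to 10 weeks, and L-cell conditioned medium was used for 5 days of differentiation. Cort was given at 500 nM and Dex at 100 nM, each for 24 h, so steroid and dose cannot be told apart. Vehicle (4 libraries) was the background, and 3 libraries from cells given interleukin 4 (IL4) at 10 ng/ml entered the estimate of spread. Replicates 1 and 2 were labelled batch 1, replicates 3 and 4 batch 2, and the IL4 libraries were all batch 2. Chromatin for GR was crosslinked with disuccinimidyl glutamate and formaldehyde. No source used here ties libraries to separate animals, so a p-value measures only how these libraries vary, which may be technical.

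GR is a nuclear receptor that is held in the cytoplasm by heat shock proteins until a glucocorticoid binds it. It then enters the nucleus and binds DNA, often as a dimer on a palindrome of 2 half-sites, AGAACA and TGTTCT, spaced by 3 bases, and recruits coactivators that raise acetylation of histone H3 at lysine 27 (H3K27ac). In macrophages the receptor is known for raising anti-inflammatory genes and scavenger receptors and for restraining inflammatory genes. Cort is the natural glucocorticoid of mice. Dex is synthetic and differs from Cort, among other changes, by an added fluorine and an added methyl group.

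Sequence was looked at where a GR peak lay on a promoter, because there the receptor's site can be read beside its signal. RefSeq promoter windows of build GRCm38.p6 (mm10), 250 bases before to 50 after a gene's start, were searched for a core of the palindrome, GNACANNNTGTNC, which is 13 bases long and reads the same way on both strands. It lacks the outer base of each half-site, so a half-site can overlap a core but is not contained in one. The core was in 0.44% of all 19485 windows, and in 3 (1.43%) of the 210 windows that overlapped a GR peak. A half-site of either kind was in 15.9% of all windows and in 18.6% of those 210. The complete palindrome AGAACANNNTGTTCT was in 2 windows, neither with a GR peak. The 3 windows with a core and a peak are shown 5′ to 3′ on the gene's strand with the core in capitals, as the only promoters here in which a core and GR signal met.
Map3k6, chr4:133240568-133240867, plus strand: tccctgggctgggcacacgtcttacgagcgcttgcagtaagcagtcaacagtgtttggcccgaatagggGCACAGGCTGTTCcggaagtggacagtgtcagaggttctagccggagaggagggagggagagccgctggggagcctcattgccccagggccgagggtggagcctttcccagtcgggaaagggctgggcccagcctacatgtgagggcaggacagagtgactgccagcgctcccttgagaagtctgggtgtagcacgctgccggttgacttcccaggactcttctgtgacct
Slc10a6, chr5:103629354-103629653, minus strand: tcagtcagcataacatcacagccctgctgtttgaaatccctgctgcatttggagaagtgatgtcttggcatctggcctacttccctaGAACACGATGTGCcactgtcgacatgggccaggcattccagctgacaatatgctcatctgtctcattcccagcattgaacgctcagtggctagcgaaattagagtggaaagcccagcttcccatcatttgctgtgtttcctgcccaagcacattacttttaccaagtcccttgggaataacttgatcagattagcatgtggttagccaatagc
Mt1, chr8:94178839-94179138, plus strand: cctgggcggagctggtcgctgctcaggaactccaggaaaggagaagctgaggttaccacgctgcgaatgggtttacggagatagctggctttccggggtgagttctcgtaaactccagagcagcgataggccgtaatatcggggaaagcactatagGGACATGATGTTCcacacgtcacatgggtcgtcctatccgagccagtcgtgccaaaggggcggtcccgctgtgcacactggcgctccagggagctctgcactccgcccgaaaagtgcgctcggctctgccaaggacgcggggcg
Each core lay inside its GR peak. At the Slc10a6 promoter, a steroid sulphate transporter gene of the glucocorticoid-induced list, the GR peak (chr5:103629385-103629798) held 40.8, 38.0, 35.2 and 45.8 normalised CPM (reads in the peak relative to the library's reads in all peaks, after scaling between libraries) in Cort replicates 1 to 4. It held 59.8, 43.2, 40.6 and 53.8 in Dex replicates 1 to 4 and 5.16 to 8.41 in vehicle. Both steroids lay above vehicle and the Cort and Dex libraries overlapped, with a Dex minus Cort log2 difference of 0.30 ± 0.30 (SE) in all libraries and 0.40 ± 0.28 without Cort replicate 4. At Map3k6, a stress kinase gene, the peak (chr4:133240470-133240813) held 23.5 to 35.7 CPM with Cort, 36 to 54.9 with Dex and 5.66 to 10.3 with vehicle. Every Dex library was above every Cort library by a narrow margin, and the difference was 0.45 ± 0.26, and 0.59 ± 0.28 without Cort replicate 4. At Mt1, which encodes a metal-binding protein, the peak (chr8:94178839-94179153) was weaker, with 13.4 to 20.2 CPM with Cort, 17.7 to 24.4 with Dex and 9.03 to 14.0 with vehicle, and a difference of 0.28 ± 0.24 (0.29 ± 0.29 without Cort replicate 4). The Map3k6 peak was chosen after its values were seen, for its promoter match. Of the 120 tested GR peaks on promoter windows, 18 were raised by the steroids and 4 lowered, where 15.7% of all tested peaks were raised and 19.3% lowered. Those 18 had Dex minus Cort differences from -0.53 to 0.45, with a median of 0.10.

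Counts in GR peaks ranged from 1185798 to 1904442 in the Cort and Dex libraries. The most-read region, chr2:98666249-98667322, took 45.4% to 57.0% of them. Outside the 1% of peaks with the most reads lay 8.08%, 11.6%, 6.796% and 22.7% of the counts of Cort replicates 1 to 4, and 10.5%, 11.9%, 8.24% and 7.43% of those of Dex replicates 1 to 4, against 3.87% to 7.80% in vehicle. Cort replicate 4 had the highest share, and the other 7 lay between 6.796% and 11.9%. The mean share differed by -2.80 percentage points, Dex minus Cort (exact permutation test within batch, two-sided p = 0.889, where the smallest possible p was 0.0556). With Cort replicate 4 left out the difference was 0.67 points (exact p = 0.667, smallest possible 0.111). The tissue label was checked on the H3K27ac libraries: all 10 macrophage markers had peaks (summed level 2933 to 3311 CPM in the Cort and Dex libraries). No mast cell or basophil marker of 8 had one. Neutrophil markers had peaks at 5 of 10 genes (summed 198 to 283 CPM, with none at Ly6g or Mpo), T and NK markers at 4 of 10 (36.2 to 52.9 CPM, none at Cd3e or Trac) and B markers at 3 of 8 (132 to 166 CPM, none at Pax5), with overlapping ranges under Cort and Dex. Those with peaks were S100a8, Elane, Camp, Cxcr2 and Mmp8 (neutrophil), Cd3d, Cd4, Klrb1c and Lck (T and NK), and Cd79a, Ms4a1 and Vpreb1 (B). Dendritic markers had peaks at 6 of 8 genes (349 to 412 CPM, none at Siglech or Cd209a), erythroid or megakaryocyte markers at 2 of 8 (58.0 to 105 CPM, none at Gata1), fibroblast or stromal markers at 1 of 8 (52.9 to 68.0 CPM, none at Col1a1 or Pdgfra) and osteoclast markers, many of them shared with macrophages, at 7 of 8 (1127 to 1410.3 CPM, none at Calcr), again with overlapping ranges. Those with peaks included Flt3, Xcr1, Zbtb46, Clec9a, Itgae and Bcl11a (dendritic), Klf1 and Pf4 (erythroid or megakaryocyte) and Pdgfrb (fibroblast or stromal).

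The libraries were first set beside each other, peak by peak, with the mean chi-square per peak over 3411 peaks, which is 1 where 2 libraries differ by counting noise alone. Cort replicate 4 was 38.7 to 60.2 from every other Cort and Dex library. The other 7 fell by batch and not by steroid. Cort replicate 2 was closer to Dex replicate 2 (1.19) than to Cort replicate 1 (2.49), and Cort replicate 3 was closer to Dex replicate 3 (1.59) than Dex replicate 3 was to Dex replicate 4 (1.98). Between batches, Dex libraries differed from each other by 7.60 to 9.20. Within a batch, Cort and Dex libraries lay 1.19 to 2.53 apart, and replicates of 1 steroid 1.65 to 2.49, leaving Cort replicate 4 aside. In batch 1, vehicle replicates 1 and 2 lay 5.09 to 9.14 from the Cort and Dex libraries. In batch 2, vehicle replicates 3 and 4 lay 5.60 to 11.1 from Cort replicate 3 and Dex replicates 3 and 4.

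**Figure D1:**
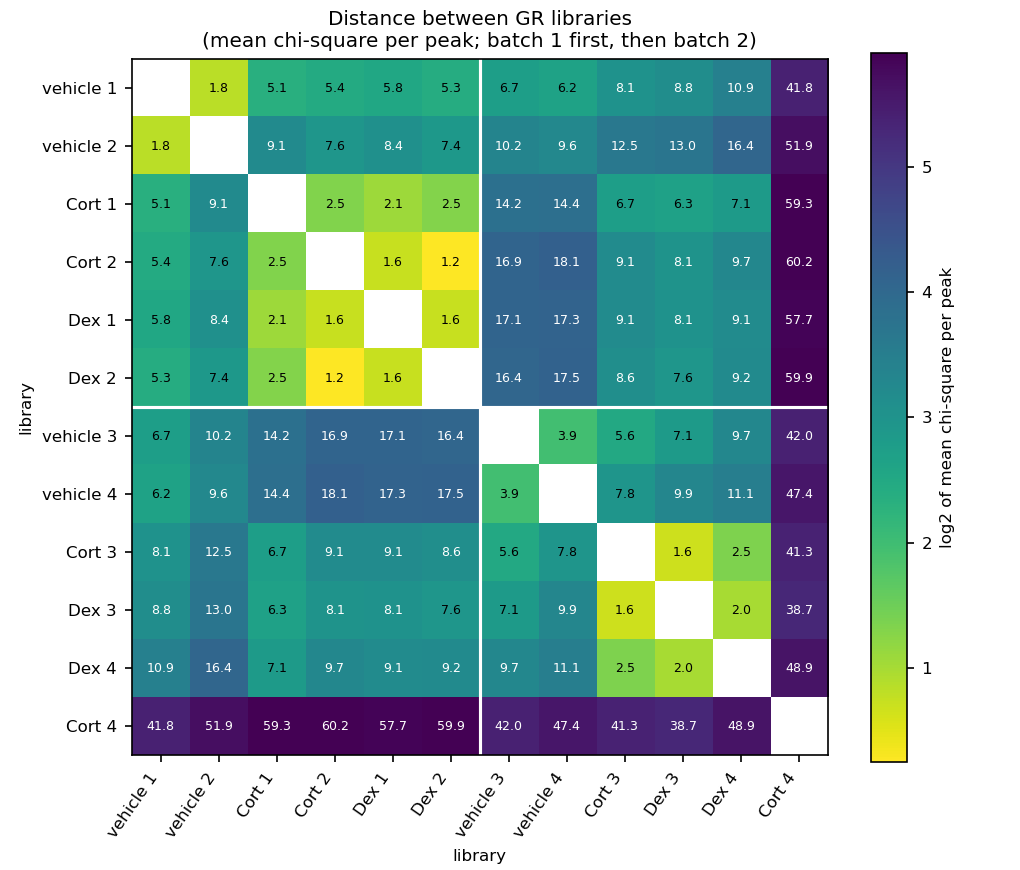
Mean chi-square per peak between pairs of GR libraries over 3411 peaks, with batch 1 libraries first and batch 2 libraries after the white lines (colour on a log2 scale, values printed). Cort and Dex libraries of a batch lay 1.19 to 2.53 apart, except Cort replicate 4, which lay at least 38.7 from every other library shown.

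No GR peak passed the test for a difference between Dex and Cort. In edgeR's quasi-likelihood test with batch as covariate, 0 of 5183 peaks (0%) passed an adjusted p under 0.05, and 470 (9.07%) had an unadjusted p under 0.05. The smallest adjusted p was 0.522. When Cort replicate 4 was left out, 0 of 5018 peaks (0%) passed, 132 (2.63%) had an unadjusted p under 0.05, and the smallest adjusted p was 0.9997. DESeq2 also called 0 peaks in both cases, with 508 and 71 at an unadjusted p under 0.05, and limma voom with quality weights called 0, with 248. The median Dex minus Cort difference over all tested peaks was -0.02 on the log2 scale, and 0.02 without Cort replicate 4. The same fits found many peaks that differed between the steroids and vehicle, 815 higher (15.7%) and 1000 lower (19.3%), together 35%, and 849 higher (16.9%) and 1447 lower (28.8%) without Cort replicate 4. Scaled by total counts in place of TMM factors, 1958 were higher and 51 lower, so the split between higher and lower rests on the scaling. That scaling also moved the median Dex minus Cort difference over all peaks to 0.19.

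How close the steroids were can be read from the intervals. In bulk chromatin, fewer cells with a bound site and less binding per cell cannot be told apart. Without Cort replicate 4, the 95% confidence interval of Dex minus Cort lay within 1 log2 unit of 0 at 1852 of 5018 peaks (36.9%), and at 571 of the 849 peaks raised by the steroids (67.3%). With all libraries the shares were 37.8% and 68.0%. At the other peaks a 2-fold difference between the steroids was not bounded. Some of these intervals were wide, and some belonged to larger differences, as in Cblb (0.35 to 1.57 without Cort replicate 4). The peaks lowered by the steroids had intervals within 1 unit at 52.1% of 1000 peaks, and at 41.9% of 1447 without Cort replicate 4.

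**Figure D2:**
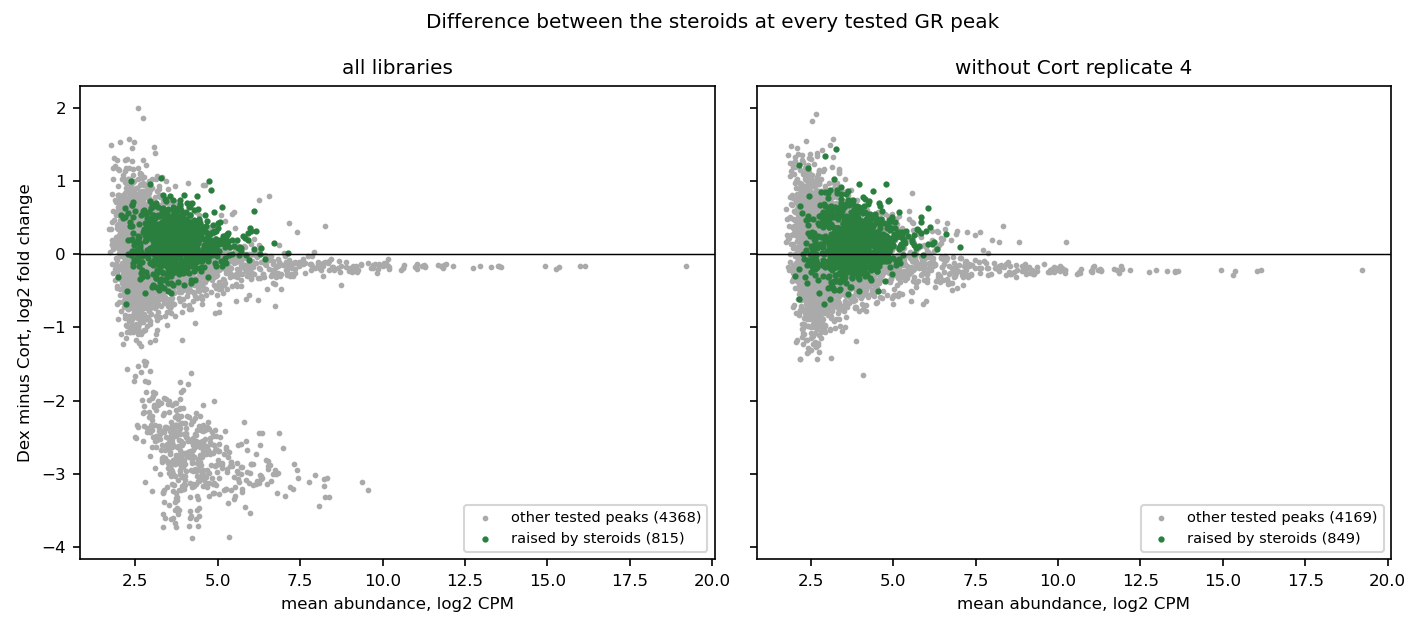
Dex minus Cort log2 fold change (y axis) against mean abundance in log2 CPM (x axis) for each tested GR peak, with all libraries (left) and without Cort replicate 4 (right). The lowest value is -3.87 on the left and -1.65 on the right, and the steroid-raised peaks (green, 815 and 849) lie around medians of 0.15 and 0.14.

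At the peaks with the largest response to the steroids as a pair, GR signal under Cort and Dex lay close together. These 20 peaks, 1 per gene, were taken by the size of the mean Cort and Dex change against vehicle, a choice that does not use the difference between the steroids. All 20 lay in H3K27ac peaks, as did 97.7% of the steroid-raised peaks and 69.8% of all tested peaks. Every Cort and Dex library was above every vehicle library at each of the 20, which follows from how they were chosen. Dex minus Cort ranged from -0.09 to 0.59 with a median of 0.16, above 0 at 15 peaks. With Cort replicate 4 left out it ranged from -0.10 to 0.62 with a median of 0.24, above 0 at 17. The interval lay within 1 log2 unit of 0 at 15 of the 20 in each case. The standard errors were 0.26 to 0.46, and 0.27 to 0.48 without Cort replicate 4.

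The strongest site of the 20 by level lay 25.1 kb from Ergic1 and within 50 kb of Dusp1, the gene of a phosphatase that shuts off MAP kinases (chr17:26535142-26535626). It held 282, 216, 185 and 271 CPM in Cort replicates 1 to 4 and 295, 212, 197 and 263 in Dex replicates 1 to 4, against 11.2 to 23.2 in vehicle (331 to 615 reads per steroid library). Cort and Dex values interleaved, and the difference was 0.02 ± 0.30 (0.10 ± 0.27 without Cort replicate 4). Within Fkbp5, which encodes a co-chaperone that lowers the receptor's affinity for hormone, the peak chr17:28420136-28420595 held 109, 121, 82.2 and 109 CPM with Cort and 162, 121, 113 and 127 with Dex. Vehicle held 11.2 to 18.1. The difference was 0.31 ± 0.31, and 0.37 ± 0.28 without Cort replicate 4. A second site near Fkbp5, 12.5 kb from Armc12 (chr17:28518000-28518382), held 137 to 182 CPM with Cort and 118 to 171 with Dex, with a difference of -0.06 ± 0.46 (0.06 ± 0.31 without Cort replicate 4). Within 50 kb of the stress gene Ddit4, 13 kb from Anapc16 (chr10:59974098-59974448), the values were 84.4, 84.8, 83.9 and 120 with Cort and 147, 77.2, 97.7 and 133 with Dex, against 2.80 to 6.62 with vehicle. Dex libraries lay on both sides of the Cort libraries there, and the difference was 0.29 ± 0.34 (0.43 ± 0.29).

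Cort and Dex libraries also overlapped at 3 transcription factor genes among the 20. In Klf13, a zinc finger gene, the peak chr7:63896854-63897283 held 116 to 193 CPM with Cort and 157 to 202 with Dex, with a difference of 0.15 ± 0.30 (0.27 ± 0.28 without Cort replicate 4). In Zbtb16, which encodes the zinc finger repressor PLZF, the peak chr9:48723543-48724003 held 80.5 to 116 with Cort and 90.6 to 140 with Dex, with a difference of 0.32 ± 0.31 (0.31 ± 0.28). Near Klf9, a zinc finger repressor of the same family as Klf13 (chr19:23134921-23135263), the values were 20.7 to 51.7 with Cort and 31.2 to 45.0 with Dex, with a difference of 0.08 ± 0.36 (0.12 ± 0.30). The peak 28.0 kb from Tsc22d3, the gene of the glucocorticoid-induced leucine zipper, was among the 20 by fold but short and weak (chrX:140511450-140511525, 3.67 to 8.94 CPM with Cort and 5.06 to 9.33 with Dex). A stronger peak near the same gene (chrX:140505781-140506155) held 25.2 to 58.7 with Cort and 31.8 to 43.9 with Dex, with a difference of -0.02 ± 0.37 (-0.10 ± 0.31).

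Hif3a was the only peak of the 20 at which all Dex libraries lay above all Cort libraries. Hif3a encodes a hypoxia-inducible factor subunit. Its peak (chr7:17058151-17058601) held 95.9, 82.4, 91.1 and 95.5 CPM in Cort replicates 1 to 4 and 165, 123, 129 and 132 in Dex replicates 1 to 4, with 8.82 to 18.2 in vehicle. Every Dex library lay above every Cort library, and this was so at 62 of 5183 tested peaks (1.2%) and at 29 of the 815 steroid-raised peaks (3.56%). The reverse held at 26 tested peaks (0.502%) and at 1 steroid-raised peak. Against Cort replicates 1 to 3 alone, all Dex libraries were above at 128 tested peaks (2.47%) and below at 71 (1.37%), and above at 64 of the 815 (7.85%) and below at 5 (0.613%). At Hif3a the difference was 0.59 ± 0.26 (95% interval 0.02 to 1.15, adjusted p = 0.522 in edgeR), and 0.62 ± 0.27 without Cort replicate 4. It was 0.65 ± 0.32 within batch 1 and 0.55 ± 0.49 within batch 2. The peak did not pass the test across all peaks. Against vehicle the change at this peak was 2.82 ± 0.29 with Cort and 3.40 ± 0.30 with Dex, from the same vehicle libraries.

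**Figure D3:**
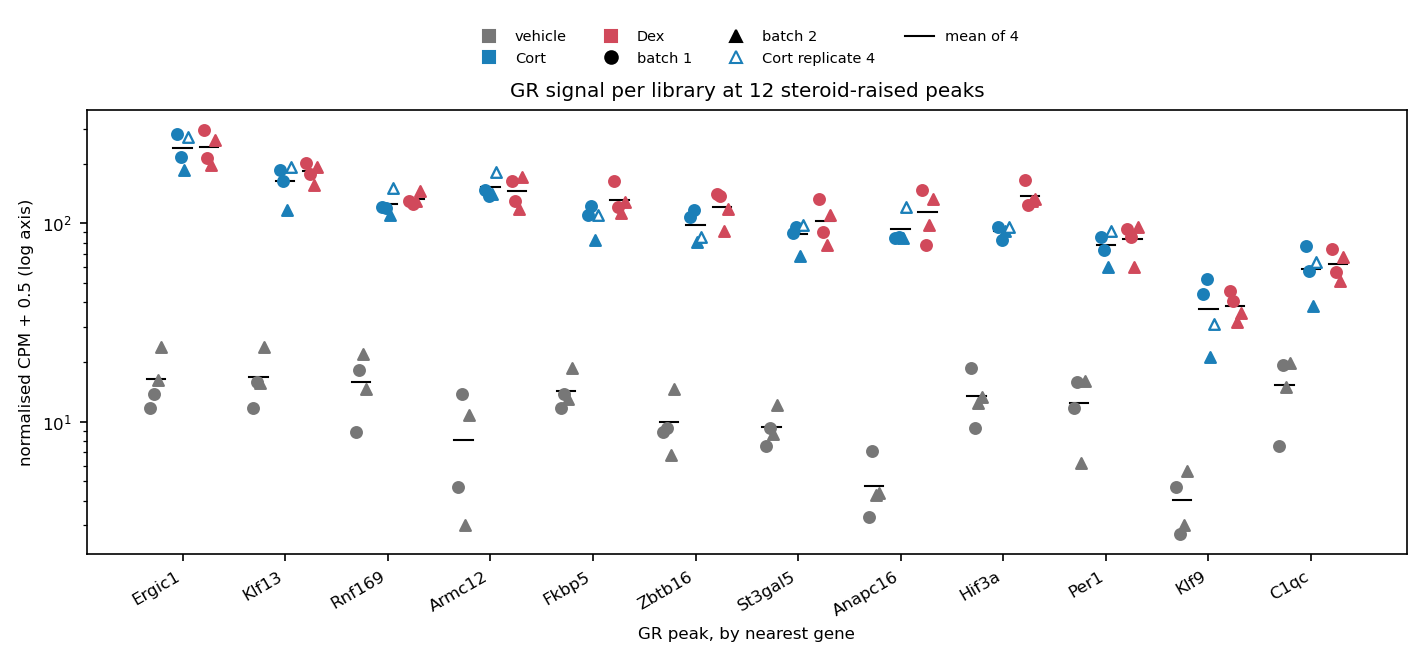
Normalised CPM plus 0.5 on a log axis in each vehicle, Cort and Dex library at 12 steroid-raised GR peaks named by the nearest gene (circles batch 1, triangles batch 2, open triangle Cort replicate 4, bar the mean of 4 libraries). Cort and Dex libraries interleave at 11 of the peaks, while at Hif3a the Dex libraries, from 123 to 165, lie above the Cort libraries, from 82.4 to 95.9.

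The remaining peaks of the 20 were near or in the nonagouti gene a, Sh3kbp1, Wee1, St3gal5, Mkrn1, Stard8, Tlr7, Zmiz1, Rnf169, Klhl6 and Kpna2. In Rnf169, a ubiquitin ligase gene (chr7:99962876-99963271), the values were 110 to 150 CPM with Cort and 125 to 145 with Dex, and in Tlr7, the gene of an RNA-sensing Toll-like receptor (chrX:167318771-167319224), 28.5 to 54.1 with Cort and 30.0 to 43.2 with Dex. Near Wee1, a cell cycle kinase gene (chr7:110116890-110117284), they were 38.5 to 62.4 with Cort and 33.5 to 60.9 with Dex. The Tlr7 and Wee1 peaks had differences of -0.09 ± 0.36 and -0.02 ± 0.32 (-0.10 ± 0.30 and -0.04 ± 0.28 without Cort replicate 4). The peak near a, 1.61 kb away (chr2:155052627-155053086), had the second largest difference of the 20, 0.36 ± 0.37 (0.50 ± 0.29 without Cort replicate 4), with 65.3 to 142 CPM with Cort and 83.5 to 177 with Dex.

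**Figure D4:**
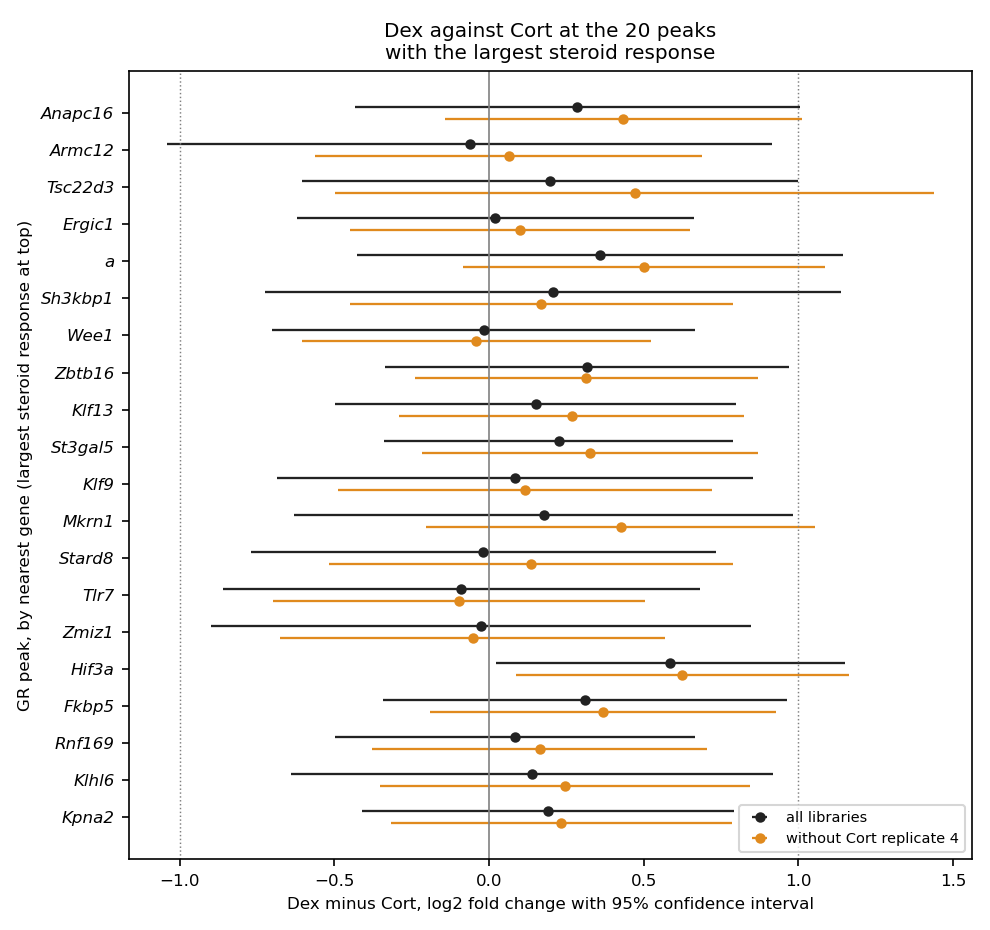
Dex minus Cort log2 fold change with its 95% confidence interval at the 20 GR peaks with the largest steroid response, in the fit of all libraries (black) and without Cort replicate 4 (orange), named by the nearest gene. Values run from -0.09 to 0.59 with all libraries, the intervals of 15 peaks lie within the dotted lines at 1 log2 unit, and the interval of Hif3a alone lies above 0.

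Across the steroid-raised peaks as a class, small differences leaned to Dex. The median of Dex minus Cort was 0.15 over 815 peaks with all libraries, with Dex above Cort at 73.0%, and 0.14 over 849 peaks, 69.7%, without Cort replicate 4. Over all tested peaks Dex was above Cort at 48.0% and 52.4%. The peaks lowered by the steroids had medians of -0.13 and -0.06. The lean was not particular to the steroid-raised class. Without Cort replicate 4, the 592 peaks at gene ends had a median of 0.15, with Dex above Cort at 67.1%. Their median change with the steroids against vehicle was -0.73. With all libraries the median at gene ends was 0.11, with Dex above Cort at 61.5%. Peaks do not vary independently of each other, and a shift of all peaks in a class moves with the scaling, so these are descriptions without a test. Sites can also be chosen by H3K27ac peaks that the steroids raised in separate libraries. The GR counts still entered this choice, since only GR peaks with enough reads to be tested were used and the most-read were left out. At 762 such GR peaks outside the most-read 1%, the summed signal was 14675, 15354, 11982 and 14049.7 CPM in Cort replicates 1 to 4. It was 16769, 15408, 13844 and 16306 in Dex replicates 1 to 4, and 4603 to 6186 in vehicle. The Cort and Dex sums overlapped, with means of 14015 ± 1456 with Cort and 15582 ± 1289 with Dex (SD, n = 4 each), and 14004 ± 1783 (n = 3) for Cort replicates 1 to 3. Cort replicate 4 was within the range of the others in this sum.

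H3K27ac itself, measured in 3 libraries per group apart from those of GR, also held no call. No H3K27ac peak of 59881 (0%) passed for Dex against Cort in edgeR, with 793 (1.32%) at an unadjusted p under 0.05. DESeq2 called 0 with 411, and with a block for replicate number, which pairs these libraries, 0 passed with 2293 at an unadjusted p under 0.05. Against vehicle, 1961 H3K27ac peaks (3.27%) rose with the steroids and 1846 (3.08%) fell, together 6.36%, or 6282 and 6891 with the block. At the 20 named sites the H3K27ac difference ranged from -0.00 to 1.15 with a median of 0.17, and was above 0 at 19. Of 830 GR peaks raised by the steroids that lay in a tested H3K27ac peak, 79.0% had more H3K27ac with Dex than with Cort, with a median difference of 0.10. Over all 59881 H3K27ac peaks the share was 50.0% and the median 0.000234. The Dex minus Cort differences of GR (without Cort replicate 4) and of H3K27ac were set beside each other. Across those 830 GR peaks, in 782 H3K27ac peaks, they had a Pearson r of 0.35 and a Spearman rho of 0.33. Over all 3550 tested GR peaks in a tested H3K27ac peak, r was 0.21 and rho 0.21. Among those with an unadjusted p under 0.05, r was -0.16 at the 67 with more GR under Dex and 0.31 at the 26 with less. Neighbouring GR peaks share an H3K27ac peak, and differences of deep and shallow peaks differ in noise, so these values describe these peaks only. In the 208 steroid-raised peaks with the largest GR difference the median H3K27ac difference was 0.21, and in the 208 with the lowest 0.05.

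The peaks with the smallest unadjusted p were taken next, as values, since none passed. In the fit that left out Cort replicate 4, 78 peaks had an unadjusted p under 0.05 with higher signal under Dex and 54 with lower signal. Of these 132, 60 also had one with all libraries. The 132 were 2.63% of the 5018 tested peaks, fewer than a cutoff of 0.05 lets through where no peak differs. In Cblb, which encodes a ubiquitin ligase that damps immune receptor signalling, the peak chr16:52094667-52095008 held 29.8, 44.8, 15.7 and 20.7 CPM with Cort and 70.8, 52.8, 37.1 and 53.8 with Dex. In each batch the Dex libraries were above the Cort libraries, although Cort replicate 2 exceeded Dex replicate 3, and the difference was 0.99 ± 0.33 (0.96 ± 0.30 without Cort replicate 4). H3K27ac at this site was 28.5 ± 9.58 CPM with Cort and 48.3 ± 11.1 with Dex (SD, n = 3 each), a difference of 0.75 ± 0.22. Near Slc28a2b, a nucleoside transporter gene (chr2:122483933-122484199), GR held 13.3, 11.7, 8.39 and 14.5 with Cort and 19.8, 18.7, 19.4 and 22.1 with Dex. All Dex libraries lay above all Cort libraries, by 0.74 ± 0.26 (0.86 ± 0.31), and H3K27ac differed by 0.87 ± 0.28. The H3K27ac differences at Cblb and Slc28a2b were not typical of the 78 peaks. Of those, 67 lay in tested H3K27ac peaks, with a median H3K27ac difference of 0.09. H3K27ac was higher with Dex at 53 of the 67 and lower at 14, beside 54.9% higher over all 3550 tested GR peaks in a tested H3K27ac peak.

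The peak 10.1 kb from Selenop, the gene of the plasma selenium carrier selenoprotein P (chr15:3260433-3260709), held 5.96, 6.82, 3.91 and 12.3 CPM with Cort and 18.1, 9.59, 12.4 and 19.8 with Dex, a difference of 1.04 ± 0.35 (1.43 ± 0.38 without Cort replicate 4). In Gpr141, an orphan receptor gene (chr13:19794583-19794825), it was 0.96 ± 0.40 (1.34 ± 0.44), from 2.24 to 8.38 with Cort and 7.06 to 13 with Dex. A weaker peak beside the strong St3gal5 site (chr6:72161147-72161282; St3gal5 makes the ganglioside GM3) held 8.26 to 13.6 with Cort and 15.3 to 24.1 with Dex, 0.73 ± 0.29 (0.92 ± 0.33). The strong St3gal5 peak next to it (chr6:72162105-72162494), with 68.2 to 97.7 and 77.1 to 133, had a difference of 0.23 ± 0.26 (0.33 ± 0.27). The peak in Fli1, an ETS factor gene (chr9:32541335-32541598), rested on Dex replicate 4, with 23.0 CPM there, 2.40 to 5.30 in the other Dex libraries and 1.46 to 2.29 with Cort.

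The Col4a6 and Igfbp7 peaks were among those lower with Dex in both fits. In Col4a6, a basement membrane collagen gene (chrX:141276571-141276659), a peak of 89 bp held 2.75, 10.7, 25.2 and 22.3 CPM with Cort and 1.1, 2.88, 7.65 and 8.28 with Dex. Vehicle held 13.2 to 81.2. The difference was -1.62 ± 0.46, and -1.65 ± 0.43 without Cort replicate 4. In batch 1 the ranges overlapped, since Dex replicate 2 was above Cort replicate 1, and in batch 2 both Dex libraries were below both Cort libraries. Near Igfbp7, 16.9 kb away (chr5:77424916-77425035; the gene encodes a secreted growth factor binding protein), Cort held 2.44 to 7.26 and Dex 1.1 to 2.30, against 4.2 to 15.1 in vehicle. All Dex libraries were below all Cort libraries, with a difference of -1.47 ± 0.38 (-1.34 ± 0.55). Both peaks were lowered by the steroids against vehicle and lay in no tested H3K27ac peak.

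The gene lists were read next, each gene by its tested peak with the highest signal. None of the lists held a peak called between the steroids, against 0% of all peaks. Signal was ranked by the mean of the Cort and Dex libraries, which favours peaks that the steroids raised, so the number of genes with a raised peak is read in no list as a result. Of all tested peaks, 15.7% were raised by the steroids and 19.3% lowered. In the glucocorticoid-induced list 27 of 36 genes had a tested peak, and at 18 genes it rose with the steroids against vehicle and at 0 it fell. Of all 67 tested peaks within 50 kb of these genes, 40 were raised and 2 lowered. The median Dex minus Cort difference over the list was 0.02, and 0.10 without Cort replicate 4, beside -0.02 and 0.02 for all tested peaks. Nfkbia, the gene of the NF-kB inhibitor IkB alpha (chr12:55488687-55489038), held 49.2 to 57.5 CPM with Cort and 44.1 to 51.9 with Dex, -0.17 ± 0.30 (-0.15 ± 0.28), a site chosen after its values were seen. In the circadian list 7 of 20 genes had a tested peak and 4 rose with the steroids, among them Per1, Per2 and Nfil3 (6 of all 10 tested peaks near the list's genes were raised and 0 lowered). The median difference was 0.08, and 0.26 without Cort replicate 4. In Per1, a clock repressor (chr11:69099265-69099591), Cort held 59.8 to 91.0 and Dex 60.03 to 95.2, with a difference of 0.10 ± 0.33 (0.26 ± 0.29). In Per2, its paralogue (chr1:91436344-91436658), Cort held 11.2 to 16.8 and Dex 14.7 to 23.6, with 0.49 ± 0.26 (0.39 ± 0.30), and H3K27ac differed by 0.73 ± 0.30. Near Nfil3, a bZIP repressor gene (chr13:52985467-52985792), Cort held 7.83 to 19.5 and Dex 17.1 to 19.3, with 0.36 ± 0.33 (0.35 ± 0.32). In Nr1d1, the gene of the clock repressor REV-ERB alpha (chr11:98773937-98774063), the values were 3.67, 7.31, 5.59 and 6.14 with Cort and 3.84, 2.88, 3.53 and 1.84 with Dex, against 3.87 to 8.17 with vehicle. Dex replicate 1 lay just above Cort replicate 1 and the other Dex libraries lay below all Cort libraries, with a difference of -0.91 ± 0.36 (-0.87 ± 0.49).

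In the list of phagocytosis and scavenger receptors, 17 of 23 genes had a tested peak, on 14 distinct peaks, and at 9 genes it rose with the steroids. Of all 50 tested peaks near these genes, 11 were raised and 7 lowered. The median difference was 0.09 (0.13 without Cort replicate 4). The Mertk, C1qc, Mrc1, Stab1 and Cd163 sites were chosen after their values were seen. In Mertk, the receptor for clearing apoptotic cells (chr2:128746531-128746839), Cort held 38.0 to 57.8 CPM and Dex 40.0 to 66.4, with a difference of 0.13 ± 0.26 (0.21 ± 0.27). In C1qc, a subunit gene of complement C1q (chr4:136892732-136893138), a peak that is also the strongest within 50 kb of C1qa and C1qb, Cort held 38.0 to 76.1 and Dex 50.6 to 74.1, with 0.09 ± 0.33 (0.18 ± 0.29). The site of the mannose receptor gene Mrc1 lay in Tmem236 (chr2:14204353-14204728), with 40.9 to 53.1 and 40.9 to 52.4, and a difference of 0.06 ± 0.25 (0.13 ± 0.27). The site of Stab1 in Nisch (chr14:31183011-31183332) differed by 0.17 ± 0.29 (0.24 ± 0.29), and the site 30.9 kb from Cd163 (chr6:124273132-124273718), the haemoglobin scavenger receptor gene, by 0.03 ± 0.26 (-0.08 ± 0.28). Cort and Dex overlapped at all 5 sites, and each interval lay within 1 log2 unit of 0 in the fit without Cort replicate 4. The lowest difference of the list was at the site 7.30 kb from Itgav, an integrin subunit gene (chr2:83714830-83715007), with 7.80, 10.2, 7.83 and 6.70 CPM with Cort and 2.74, 6.72, 6.47 and 6.44 with Dex. The ranges overlapped narrowly, since Dex replicate 2 was just above Cort replicate 4, and the difference was -0.53 ± 0.33 (-0.63 ± 0.40).

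In the inflammatory list 16 of 29 genes had a tested peak, on 14 distinct peaks, which rose with the steroids at 5 genes and fell at 1, and the median difference was 0.17 (0.05 without Cort replicate 4). Of all 44 tested peaks near these genes, 7 were raised and 3 lowered. The Cd40, Rela and Fosl1 sites given here were chosen after their values were seen, by small p, which favours libraries without overlap. All Dex libraries lay above all Cort libraries at 1.2% of all tested peaks and 3.56% of the steroid-raised peaks. The site of Cd40, the costimulatory receptor gene, lay in Ncoa5 (chr2:165027216-165027517) and held 16.5, 20.0, 15.1 and 21.2 CPM with Cort and 36.2, 24.0, 24.7 and 33.1 with Dex. All Dex libraries were above all Cort libraries, by 0.70 ± 0.32 (0.78 ± 0.30). The site of Rela, the p65 subunit gene of NF-kB, lay in Sipa1 (chr19:5661356-5661617) and held 8.71 to 11.7 with Cort and 14.1 to 18.4 with Dex, again without overlap, by 0.61 ± 0.30 (0.64 ± 0.33). The lowest difference of the list was in Il1b, the gene of the cytokine interleukin 1 beta (chr2:129367992-129368068), where Cort held 5.05, 8.28, 1.12 and 0 CPM and Dex 2.74, 3.84, 0 and 0.919. Vehicle held 1.26 to 15.4, the ranges overlapped, and the difference was -0.84 ± 0.66 (-1.02 ± 0.63). H3K27ac differed by 0.74 ± 0.41 at the Ncoa5 site and by -0.02 ± 0.11 at the Sipa1 site. In the list of KLF, bZIP, C/EBP and STAT regulators, 15 of 29 genes had a tested peak, 6 rose and 1 fell, and the median was 0.15 (0.10). The site of the AP-1 gene Fosl1 near Drap1 (chr19:5414708-5415040) held 17.0 to 20.7 with Cort and 22.5 to 42.8 with Dex, without overlap, with 0.65 ± 0.39 (0.57 ± 0.31), and the site of Fos (chr12:85464963-85465184) 7.31 to 18.4 and 10.6 to 18.8, with 0.44 ± 0.30 (0.56 ± 0.34). The site 15.1 kb from Klf2, the gene of an anti-inflammatory zinc finger factor (chr8:72303605-72303933), differed by 0.47 ± 0.29 (0.65 ± 0.35).

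For the receptor's cofactors and steroid metabolism, 7 of 23 genes had a tested peak, 3 rose and 1 fell, and the median was -0.06 (0.06). Macrophage identity genes had 16 of 18 with a peak, 1 raised and 2 lowered, and a median of -0.02 (-0.01). Housekeeping genes had 7 of 12, 1 raised and 0 lowered, and a median of 0.19 (0.30), the highest of the 8 lists.

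Part of the peaks followed 1 library. At 456 of 5183 tested peaks (8.80%), Cort replicate 4 was over 4-fold above every one of the other 14 GR libraries, and no other library did this at more than 2 peaks. The median length of these peaks was 120 bp against 156 bp for the others, and 57.9% lay in H3K27ac peaks against 70.9%. Of the 470 peaks with an unadjusted p under 0.05 in the fit of all libraries, 409 were lower with Dex, and 363 of those were among the 456. The median Dex minus Cort difference at the 456 peaks was -2.77 with all libraries, and 0.23 at the 340 still tested without Cort replicate 4. In Dpp9, a peptidase gene (chr17:56199963-56200125), Cort replicates 1 to 4 held 11.9, 31.7, 72.1 and 3012 CPM, Dex 13.7 to 63.6 and vehicle 41.3 to 114. In Prkdc, the gene of a DNA repair kinase (chr16:15642764-15642900), Cort replicate 4 held 2687 and the other Cort libraries 8.26 to 64.3, and in Fam227b (chr2:126147857-126147978) 2352 against 11 to 60.4. IL4 replicate 1 held the next highest value at the Dpp9, Prkdc and Fam227b peaks, with 205, 229 and 210 CPM. It was also the library nearest to Cort replicate 4, at a mean chi-square per peak of 32.8. At 4 sites of the list genes Cort replicate 4 stood far above the other Cort libraries too. These were in Rora, a nuclear receptor gene of the clock (chr9:68913915-68914023, 280 against 0.46 to 7.27 CPM in the other Cort libraries), and in Ncoa1, a receptor coactivator gene (chr12:4417680-4418006, 327 against 3.90 to 10.1 CPM). The other two were the site of Sesn1, a stress-induced sestrin gene, in Cep57l1 (chr10:41768488-41768604, 47.5 against 0 to 0.559 CPM), and the site of Tgfbr3, a TGF-beta co-receptor gene, 19.2 kb from Brdt (chr5:107311844-107311957, 602 against 5.05 to 18.4 CPM). At the 849 peaks raised by the steroids without this library, it exceeded all others 4-fold at 0 peaks and lay within the range of the other 7 steroid libraries at 595 (70.1%), below it at 191 and above it at 63.

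Part followed the batch. At 373 of 5183 peaks the batch 1 Cort and Dex libraries averaged over 10-fold more than Cort replicate 3 and Dex replicates 3 and 4, and at 2 peaks over 10-fold less. These sites, chosen after their values were seen, lay in or at the end of a gene in 85.8%, against 53.4% of all tested peaks. In Lyz2, the macrophage lysozyme gene (chr10:117277317-117278177), Cort replicates 1 to 4 held 1496, 2518, 7.83 and 12.8 CPM and Dex replicates 1 to 4 held 2475, 2438, 10.6 and 3.68, while vehicle held 2949, 5082, 16.3 and 23.2. In Apoe, an apolipoprotein gene (chr7:19696262-19697088), Cort held 412, 668, 5.59 and 6.70 and Dex 690, 644, 8.24 and 8.73. The peaks in Tmsb4x, a thymosin gene (chrX:167207067-167207524), Fth1, the ferritin heavy chain gene (chr19:9984791-9985105), and Ctsb, a cathepsin gene (chr14:63142267-63143153), had the same pattern. The median Dex minus Cort difference at the 373 peaks was 0.09 (0.18 without Cort replicate 4), and 0 of the 373 were raised by the steroids, beside 15.7% of all tested peaks. What set the batches apart at these sites was not tested.

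**Figure D5:**
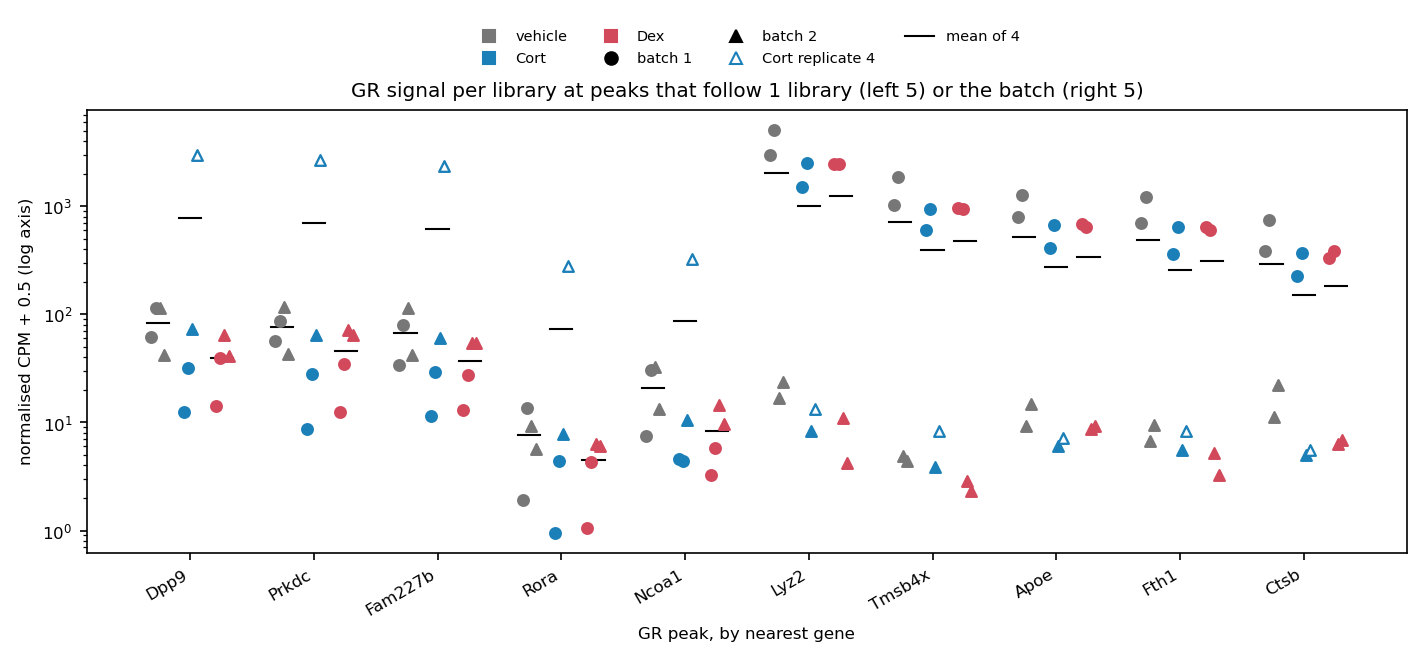
Normalised CPM plus 0.5 on a log axis per library at 5 GR peaks high in Cort replicate 4 (left) and 5 high in batch 1 (right), drawn as in the plot of steroid-raised peaks. Cort replicate 4 (open triangle) reaches 3012 CPM in Dpp9, and in Lyz2 the batch 1 libraries of all 3 groups, from 1496 to 5082, lie above the batch 2 libraries, from 3.68 to 23.2.

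Whether the difference between the steroids itself changed with the batch was tested with an interaction term. In edgeR 0 of 5183 peaks (0%) passed and 424 (8.18%) had an unadjusted p under 0.05, while DESeq2 called 75, all lower. With Cort replicate 4 left out edgeR called 0, with 129 at an unadjusted p under 0.05. Without Cort replicate 3, which leaves Cort replicate 4 as the sole Cort library of batch 2, it called 446, of which 440 were lower.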

How the data were processed

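The authors deposited raw read counts per peak, with 1 peak list per assay that all its libraries share. The submitters' processing notes name fastp, Bowtie2, SAMtools, MACS2, featureCounts and the mm10 build. Tool versions, the merging of peaks and the treatment of duplicates are not given in the sources used here. The columns headed C were matched to vehicle by elimination. The H3K27ac input library was not analysed here. The deposited peak length is in bp.

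Tests used edgeR 4.0.16 under R 4.3.3 (filterByExpr, TMM factors, quasi-likelihood test, Benjamini-Hochberg over all tested peaks, called at an adjusted p under 0.05), in a fit of all 15 GR libraries with batch as covariate, or of all 12 H3K27ac libraries. The main GR comparisons were fitted with and without Cort replicate 4. Standard errors come from the fold change and its F statistic, as size over root F, and intervals are 95%. DESeq2 1.42.0 and limma 3.58.1 were run beside it. The script was tested on simulated data. Scaling used counts in peaks, so changes are relative to other peaks. Normalised CPM are from the fit of all libraries. The depth outside the most-read 1% of peaks was 106240 to 143523 counts in the Cort and Dex libraries other than Cort replicate 4, with 421543, which limits weak peaks.

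Peaks take the name of the nearest of 19939 protein-coding genes of a RefSeq table (GRCm38.p6) within 50 kb, and 6726 of 8394 had one. Promoter sequences are RefSeq's, and overlaps needed 1 bp. The rules for peaks to name gave the 20 largest steroid responses, the 10 smallest p per direction in each fit, up to 4 genes per list by smallest p, and the 10 strongest peaks outside the top 1%. The text names all of the first 20 and only some of the others, and those, like any peak outside the rules, were chosen after their values were seen. Members and lists were chosen with earlier results of these data known. Alternatives covered scaling, filter, tool, peak set, batch, replicate block and each library. H3K27ac libraries with the same number deviated together (residual correlations 0.268 to 0.678 in 18 pairs, against -0.449 to 0.0406 in 36 others), so the block is given beside their counts. The identity of 1 peak called under an alternative is not reported here.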

Additional observations from a re-analysis of the deposited data

Results flagged for a closer look

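In groups of 4 libraries, 21 of 192 looked at held a library far from the other 3 of its group (gap over range above Dixon's 95% critical value). Chance gives about 5% of groups, but several peaks were named because 1 library was high there, so the count cannot be read against that share. Of the 21, 10 were Cort replicate 4 and their cause was not tested. Cort replicate 4 held 3012 CPM at the Dpp9 peak, 2687 at Prkdc, 2352 at Fam227b, 602 at the Tgfbr3 site near Brdt, 327 at Ncoa1, 280 at Rora, 219 at Alox5ap and 47.5 at the Sesn1 site in Cep57l1. It also held the highest Cort value at the Anapc16 site near Ddit4, 120, and near Klf2, 16.8, both within the range of the Dex libraries.

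Of the Dex libraries, replicate 3 was the one apart at Tlr7 with 30.0 CPM, at Klhl6 with 50.0 and near Cd163 with 40.0. Dex replicate 1 was apart near Itgav with 2.74. Dex replicate 4 was apart at Mt1 with 24.4 and at Fli1 with 23.0. Of the vehicle libraries, replicate 4 was apart at Col4a6 with 81.2, near Drap1 with 14.2 and at Cblb with 9.03, replicate 3 at Stard8 with 3.77 and replicate 2 near Tsc22d3 with 1.1, where the other vehicle libraries had no reads.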

How the results depend on the processing

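Of 35 alternatives for Dex against Cort at GR peaks, 33 called 0 peaks in edgeR, DESeq2 or limma, with 71 to 1217 at an unadjusted p under 0.05. With Cort replicate 4 left out, batch 2 alone called 1 peak, with a lone Cort library there that is assumed to vary like the other groups. With Cort replicate 4 left out and the replicate block in, 1 was called, the Col4a6 peak (-2.0, adjusted p = 0.0093 in edgeR). Leaving out Cort replicate 4 with Cort replicate 2 or with Dex replicate 2, chosen after seeing the data because that pair lay close, called 0. The GR replicate numbers were not taken to pair libraries, since not every correlation of deviations was over 0.1. Those with Cort replicate 4 were -0.197 and -0.0704, and the 4 others 0.0710 to 0.187. With all libraries the block gave 0. Leaving out each library gave 0 for this comparison, 0 to 446 for its difference between batches, 1399 to 2296 for steroids against vehicle and 0 for Dex against Cort at H3K27ac. The 446 came without Cort replicate 3, and DESeq2 gave 75. For steroids against vehicle, batch 2 alone gave 0 (1281 at an unadjusted p under 0.05), and 794 without Cort replicate 4. At H3K27ac that comparison gave 1234 to 5113 calls on leaving out a library, the lowest without vehicle replicate 3, and 13173 with the replicate block. The share outside the most-read peaks differed by -4.64 to 0.67 points on leaving out a library, and only without Cort replicate 4 was Dex the higher. Of the named peaks' values under the alternatives, 1946 were within 1 standard error of the main value, 194 were not, and 209 of the 2 kinds together had the other sign. The peak near Alox5ap turned from -2.06 ± 1.23 to 1.58 ± 0.51 without Cort replicate 4. The cause of these shifts was not tested.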

Other observations

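Where a peak lay went with the sign of the small Dex minus Cort difference, described here without a test. Without Cort replicate 4 the median was 0.15 for 592 peaks at gene ends, 0.05 for 2084 within genes, -0.01 for 1336 between genes and -0.09 for 1006 with no gene within 50 kb. It was 0.06 inside H3K27ac peaks (3554 peaks) and -0.07 outside (1464). The 84 most-read peaks had a median of -0.22, the lowest of these classes. With all libraries the 4 places fell in the same order, from 0.11 at gene ends to -0.13 with no gene within 50 kb. With total counts as the scale the median of all peaks moved to 0.19, so the sign of a class depends on the scaling.

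In the GR fit without Cort replicate 4, among 67 peaks in H3K27ac peaks with an unadjusted p under 0.05 and more GR with Dex, 53 had more H3K27ac with Dex, and among 26 with less GR, 7 had. Of those raised by the steroids and higher with Dex, 31 of 33 had more. Beside these stand 54.9% of all 3550 tested GR peaks in a tested H3K27ac peak and 79.0% of the 830 raised by the steroids.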
